A study of Mus musculus with 9 samples.

Results

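Heat shock proteins and chaperonins are described here in macrophages that lacked tristetraprolin (TTP) and were given back GFP alone, TTP or a TTP mutant. The members were taken by gene symbol (heat shock protein families named Hsp, J-domain proteins Dnaja, Dnajb and Dnajc, chaperonin subunits Cct and Tcp1, the factors Hsf1 and Hsf2, and Bag1 to Bag6, without pseudogenes). The rule used no measured value beyond the listing of a gene, and it found 76 of the 13205 genes listed for the comparison of TTP-AA with TTP. In the wider table of levels 86 names matched. The 10 that were not listed had group levels between 0.0761 and 4.16, among them Hspb1 (HSP27) at 0.113 in GFP, 0.115 in TTP and 0.113 in TTP-AA, so they were left out of every count.

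The cells were bone marrow-derived macrophages of TTP-deficient mice, immortalized with the human c-myc and H-Ras G12V oncogenes. Each line carried an all-in-one doxycycline-inducible vector, which encoded GFP in the GFP group, GFP-TTP in the TTP group and GFP-TTP-AA in the TTP-AA group. The AA mutant has the serine changes S52A and S178A at the sites through which the stress kinase MK2 restrains TTP. All 9 libraries, 3 per group, came from cells given doxycycline at 1 µg/ml for 6 h and LPS at 1 µg/ml for 1 h, so every group is LPS-stimulated and no unstimulated group is compared. A group is thus 1 transduced immortalized line with its transgene under an inducible promoter, and differences between lines other than the transgene cannot be told apart from those of the transgene. Ribosomal RNA was removed from total RNA before sequencing.

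The deposited level of a gene in a library is a mean fitted by the authors: it is the product of terms for the library, for the replicate number and for the group. The level given below is this value after library scaling, in units of a normalized count. Libraries of a group therefore differ only by the replicate-number term, no residual error is left, and no test, standard error or p-value can be had from these levels. As a yardstick, a member is counted as higher or lower when its group levels differed by more than 0.32 on the log2 scale, that is, when the higher level exceeded the lower by over 25%. This limit is meant wherever a member is said to be past or within the limit. The libraries of a pair of groups are called non-overlapping when the group difference was larger than the range between replicate numbers. Neither is a statement of significance. The range is a shift between replicate numbers that all groups share in the fit. Whether narrow or wide, it does not measure the error of a group difference. The sums of fitted means, which stand in for depth, ran from 21482954 (TTP replicate 1) to 102613526 (TTP-AA replicate 3).

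The labels were checked against other genes. Zfp36, the gene disrupted in the cells and supplied by the transgenes, had group levels of 1301 in GFP, 1330 in TTP and 2106 in TTP-AA. Its level thus does not support the label of the TTP libraries against GFP (log2 difference 0.03). Reads of the disrupted gene and of the transgene cannot be told apart in the TTP and TTP-AA groups. All 8 macrophage markers were listed, with a summed level of 100596 in GFP, 95969 in TTP and 120157 in TTP-AA, and none of them was near 0. They were uneven between the groups: Adgre1, which encodes a surface antigen on which the cells were selected, was at 16706, 9877 and 26800, and Fcgr1 at 661, 285 and 505, while Cd68 was at 9823, 9363 and 10014. Their part in the differences of the chaperone genes was not tested. Markers of T cells summed to at most 10.7, and those of B cells, fibroblasts, epithelium and neutrophils each to at most 2.12. In bulk RNA fewer cells with a transcript and less transcript per cell cannot be told apart.

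Chaperones bind unfolded or partly folded proteins and help them to fold, with ATP driving the cycle in the HSP70, HSP90 and chaperonin machines. J-domain proteins deliver clients to HSP70 and start its ATP hydrolysis, and BAG proteins and the HSP110 family release the nucleotide again. Under heat and other proteotoxic stress the factor HSF1 switches on the stress-inducible members, of which Hspa1a and Hspa1b are the standard readout, while chaperones of the endoplasmic reticulum (ER) answer to the unfolded protein response. TTP is an RNA-binding protein that binds AU-rich elements in 3′ untranslated regions (3′UTRs) and promotes mRNA decay in activated macrophages.

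Most members stayed within the limit between the groups. In TTP against GFP, 1 of 76 members was higher (Hspd1; 1.32%), beside 4.48% of all listed genes, and 3 were lower (Dnajc14, Hspb6 and Dnajb14; 3.95%), beside 8.09%. In TTP-AA against GFP, 4 were higher (Hspa1a, Hspa1b, Dnajc28 and Dnajb9; 5.26%), beside 11.0% of all listed genes, and 8 were lower (10.5% of members), beside 9.63%. In TTP-AA against TTP, 8 were higher (10.5%), beside 16.1%, and 13 were lower (17.1%), beside 12.1%. Libraries of the groups did not overlap for 15 members in TTP against GFP (19.7%, beside 19.5% of listed genes), for 19 in TTP-AA against GFP (25.0%, beside 25.0%) and for 28 in TTP-AA against TTP (36.8%, beside 30.8%). The share of members past the limit upwards was below that of listed genes in all 3 comparisons, and the share without overlap was near that of the table in both comparisons with GFP. The difference between such shares was not tested. The median log2 difference over the members was 0.06, -0.01 and -0.07 in the same order, with the median of all listed genes at 0.00 after scaling.

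**Figure D1:**
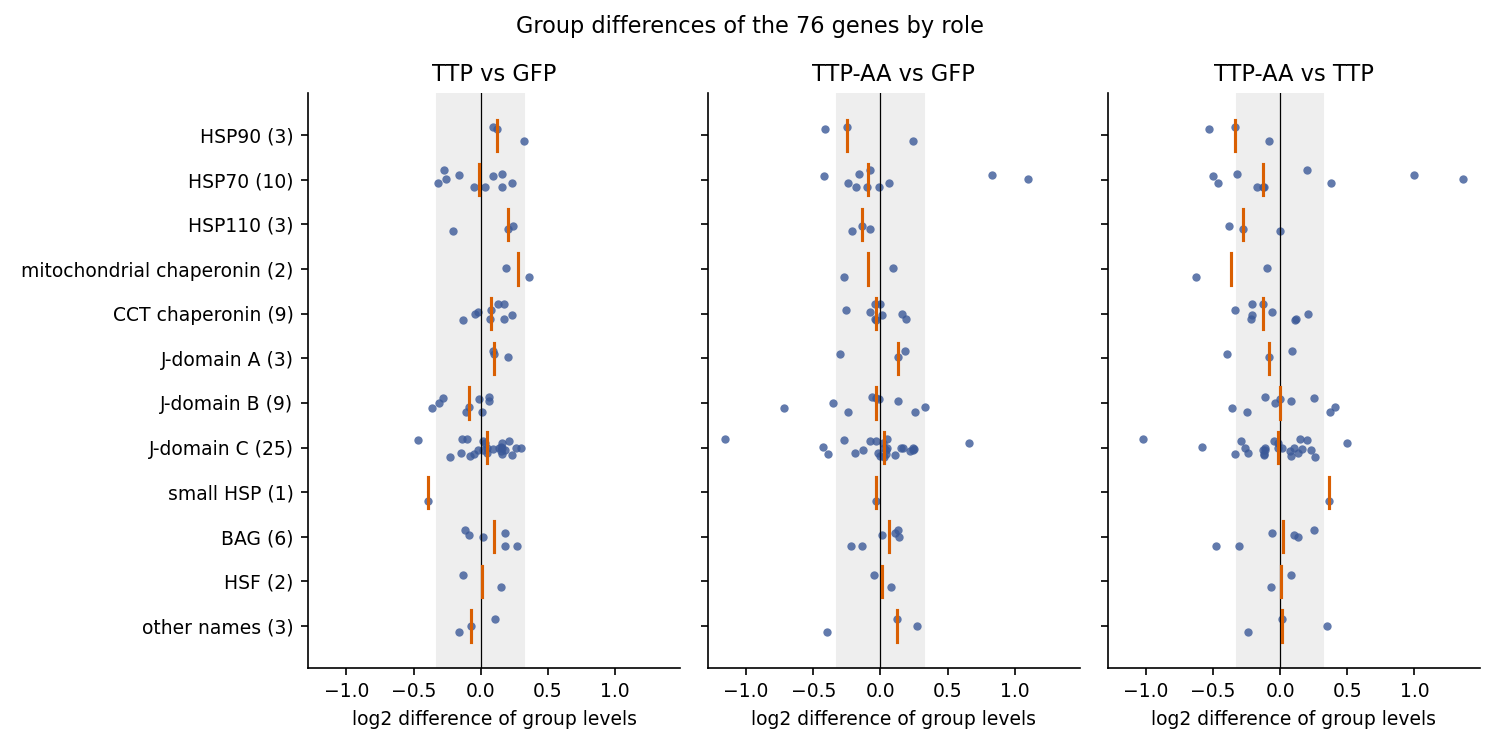
Log2 difference of group levels (horizontal axis) of each of the 76 members, 1 point per gene, in rows by role with the number of genes, for the 3 comparisons. The grey band is the range within 0.32 of 0 and the orange lines are row medians; in both comparisons of TTP-AA, Hspa1a and Hspa1b stand far to the right in the HSP70 row, and Dnajc22 far to the left in the J-domain C row.

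The stress-inducible HSP70 genes Hspa1a and Hspa1b were the members furthest up in TTP-AA. Hspa1a (ENSMUSG00000091971, chr17:34969190-34972156, minus strand, GRCm38) had levels of 89.9, 133 and 111 in GFP replicates 1 to 3, of 75.3, 111 and 92.7 in TTP and of 193, 285 and 238 in TTP-AA. All TTP-AA libraries lay above all others, and those of GFP and TTP overlapped. The group level in TTP-AA was 2.15-fold that in GFP and 2.57-fold that in TTP (log2 differences of 1.10 and 1.36, with a range between replicate numbers of 0.56), whereas the difference between TTP and GFP was -0.26. Hspa1b (ENSMUSG00000090877, chr17:34956436-34959238, minus strand) had levels of 116, 208 and 150 in GFP, of 104, 185 and 134 in TTP and of 207, 370 and 267 in TTP-AA. Its group level in TTP-AA was 1.78-fold that in GFP (0.83 on the log2 scale) and 1.99-fold that in TTP (1.00), with a replicate-number range of 0.84, and the libraries of TTP-AA overlapped those of GFP but not those of TTP.

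Hspa1a and Hspa1b are neighbouring copies. Of their 50-base stretches, 66.3% in Hspa1a and 62.3% in Hspa1b also occur in another gene, chiefly in each other, and reads with up to 2 placements were kept upstream, so the split of reads between the copies is uncertain. The sum of the pair does not depend on reads exchanged between them: it was 206, 341 and 260 in GFP, 179, 296 and 227 in TTP and 400, 655 and 505 in TTP-AA. TTP-AA libraries were above all others in the sum too, by 1.93-fold over GFP and 2.22-fold over TTP (0.95 and 1.15 on the log2 scale). The testis-type copy Hspa1l lies beside Hspa1a on the opposite strand and shares 71.4% of its stretches with other genes. It had a group level of 82.3 in GFP and of 68.1 in TTP and a difference of -0.08 between TTP-AA and GFP. Per kilobase of transcript both inducible genes were low, at 49.1 (Hspa1a) and 67.1 (Hspa1b), ranks 9627 and 9245 among 11629 listed genes, while the constitutive Hspa8 was at 17578, rank 131. Shared stretches were not taken out of the transcript lengths, and the effect of reads lost or gained through them on these ranks was not tested.

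The promoters of this pair are shown because HSF1 acts on them through heat shock elements, arrays of the unit nGAAn in alternating orientation. Windows of 250 bases before to 50 bases after the start are from RefSeq on GRCm38.p6 (minus strand, written 5′ to 3′), at chr17:34972107-34972406 for Hspa1a and chr17:34959189-34959488 for Hspa1b, with a 2-unit element (GAANNTTC or TTCNNGAA, each its own reverse complement) in capitals. The windows differ at 4 of 300 positions, and each holds the same single element.
Hspa1a promoter: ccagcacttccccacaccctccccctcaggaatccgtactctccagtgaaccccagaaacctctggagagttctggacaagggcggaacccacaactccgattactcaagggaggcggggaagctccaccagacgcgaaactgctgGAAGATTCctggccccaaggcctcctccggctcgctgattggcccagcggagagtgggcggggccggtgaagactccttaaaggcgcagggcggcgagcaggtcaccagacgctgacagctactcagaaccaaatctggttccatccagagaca
Hspa1b promoter: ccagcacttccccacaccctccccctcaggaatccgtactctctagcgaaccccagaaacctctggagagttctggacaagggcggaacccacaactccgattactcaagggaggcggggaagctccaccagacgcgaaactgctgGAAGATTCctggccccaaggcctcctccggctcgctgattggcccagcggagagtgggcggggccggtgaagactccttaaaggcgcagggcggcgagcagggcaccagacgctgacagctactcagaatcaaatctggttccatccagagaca

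**Figure D2:**
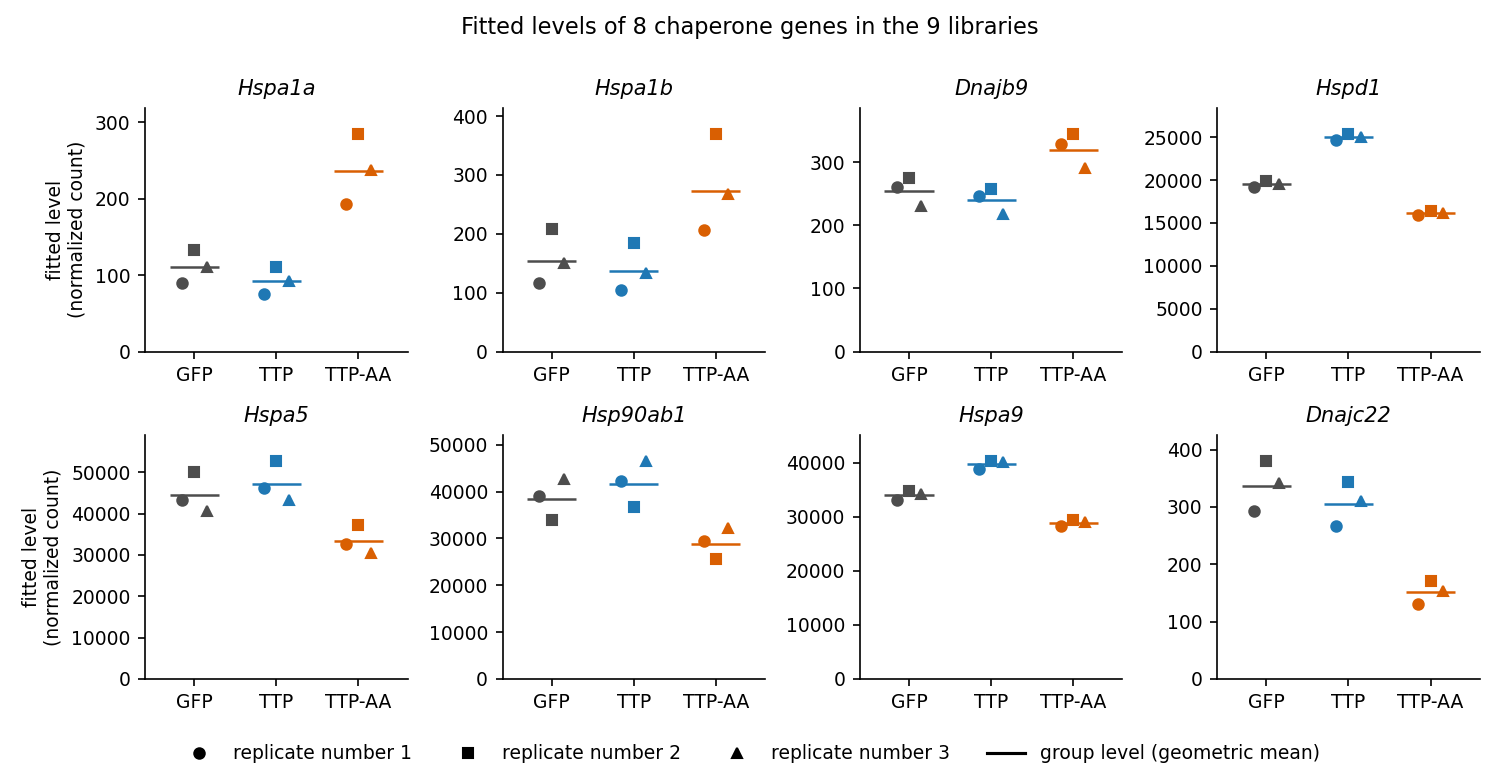
Fitted level (vertical axis, normalized count, from 0) of 8 members in each of the 9 libraries, with the replicate number as marker shape and the group level (geometric mean of 3 libraries) as a line. TTP-AA libraries lie above all others for Hspa1a and Dnajb9 and below all others for Hspd1, Hspa5, Hsp90ab1, Hspa9 and Dnajc22; within a group the spread is the replicate-number term of the authors' model, and it repeats in each group by construction.

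Other members known as heat-inducible were not past the limit upwards in TTP-AA. Hsph1, Dnaja1 and Hspd1, whose levels are given below, were past it downwards against TTP (-0.38, -0.40 and -0.63). Against GFP these genes were within it (-0.14, -0.30 and -0.27). Dnajb1, Hsp90aa1 and Bag3 were within it in both comparisons of TTP-AA. Dnajb1 (HSP40), the main J-domain partner of inducible HSP70, had group levels of 1711 in GFP, 1778 in TTP and 1876 in TTP-AA. TTP-AA was 0.13 above GFP and 0.08 above TTP on the log2 scale, with a replicate-number range of 0.33. Hsp90aa1, the stress-inducible cytosolic HSP90, was at 15724, 19617 and 18597, and its difference between TTP and GFP (0.32) lay just inside the limit, while TTP-AA and TTP differed by -0.08. Libraries of TTP and GFP did not overlap for Hsp90aa1, but 47.5% of its stretches also occur in other genes. Bag3, which hands HSP70 clients to autophagy, was at 482, 444 and 529, with TTP-AA 0.25 above TTP and a replicate-number range of 0.49. Hsf1 itself was at 1148, 1271 and 1210, and Hsf2 at 1157, 1060 and 1117, so neither factor differed by more than 0.15 on the log2 scale in any comparison.

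Of the HSP70 and HSP90 genes, Hspa5 and Hsp90ab1 were past the limit downwards in TTP-AA against both other groups. Hspa5 (BiP, the HSP70 of the ER, ENSMUSG00000026864, chr2:34771970-34777547, plus strand) had levels of 43383, 49928 and 40621 in GFP, of 46131, 52691 and 43258 in TTP and of 32517, 37264 and 30433 in TTP-AA. No TTP-AA library reached the lowest library of either other group, and TTP-AA was 1.34-fold below GFP and 1.42-fold below TTP (-0.42 and -0.50 on the log2 scale). Hsp90ab1, the constitutive cytosolic HSP90 (ENSMUSG00000023944, chr17:45567775-45573271, minus strand), had levels of 39006, 34025 and 42791 in GFP, of 42370, 36681 and 46551 in TTP and of 29382, 25521 and 32219 in TTP-AA. Here too every TTP-AA library was below every other, by 1.33-fold against GFP and 1.44-fold against TTP.

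Hspa9 (mortalin, the HSP70 of the mitochondrial matrix) had levels of 33167, 34657 and 34244 in GFP, of 38851, 40291 and 40173 in TTP and of 28183, 29325 and 29085 in TTP-AA. The 3 groups did not overlap in any pair, with TTP 1.17-fold above GFP and TTP-AA 1.18-fold below GFP and 1.38-fold below TTP. Hsp90b1 (GRP94, the HSP90 of the ER) was 1.27-fold lower in TTP-AA than in TTP (-0.34), at group levels of 30566, 32469 and 25655 in GFP, TTP and TTP-AA. For Hspa8 (HSC70, the main cytosolic HSP70) they were 41927, 46811 and 37509, and the difference of -0.32 between TTP-AA and TTP was just inside the limit. Hspa8 shares 39.4% of its stretches with other genes. Among the remaining HSP70 genes, Hspa13 was at 2377, 2421 and 2222 and Hspa14 at 4571, 5117 and 4543, both within the limit throughout, and Hspa2, which is best known from the testis, was at 195, 157 and 204, so that TTP-AA was 0.38 above TTP with overlapping libraries. Hspa12b was near the lower end of the listed levels, at 17.3 to 19.6.

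The mitochondrial chaperonin gave the only member past the limit upwards in TTP against GFP. Hspd1 encodes HSP60, the barrel in which matrix proteins fold, and Hspe1 encodes HSP10, its lid. Hspd1 (ENSMUSG00000025980, chr1:55077835-55088243, minus strand) had levels of 19226, 19932 and 19489 in GFP, of 24688, 25402 and 25063 in TTP and of 15935, 16450 and 16146 in TTP-AA. The 3 groups did not overlap in any pair, with a replicate-number range of 0.05. TTP was 1.28-fold above GFP (0.36), and TTP-AA was 1.21-fold below GFP (-0.27) and further below TTP (-0.63). Hspe1 (ENSMUSG00000073676, chr1:55088132-55091307, plus strand) had levels of 9956, 11905 and 11755 in GFP, of 11353, 13473 and 13425 in TTP and of 10605, 12627 and 12516 in TTP-AA. Its groups overlapped in all pairs, with log2 differences of 0.19, 0.09 and -0.10. In Hspd1, 42.1% of stretches also occur in other genes, among them pseudogenes, and in Hspe1 22.8% do.

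Hspd1 and Hspe1 are transcribed in opposite directions from overlapping 5′ ends, and a window of Hspd1 shares 285 bases with that of Hspe1. This Hspd1 window (RefSeq, GRCm38.p6, chr1:55087883-55088182, minus strand, 5′ to 3′) is shown because it covers most of the Hspe1 window as well, while the levels of Hspd1 differed more between the groups. It also holds 2 matches to a heat shock element of 3 units (GAANNTTCNNGAA or TTCNNGAANNTTC). These matches overlap in a continuous stretch, in capitals. The window belongs to a start inside the gene as annotated. The other RefSeq window of Hspd1, chr1:55088194-55088493, which starts at the annotated 5′ end, holds 0 elements of either kind.
Hspd1 promoter: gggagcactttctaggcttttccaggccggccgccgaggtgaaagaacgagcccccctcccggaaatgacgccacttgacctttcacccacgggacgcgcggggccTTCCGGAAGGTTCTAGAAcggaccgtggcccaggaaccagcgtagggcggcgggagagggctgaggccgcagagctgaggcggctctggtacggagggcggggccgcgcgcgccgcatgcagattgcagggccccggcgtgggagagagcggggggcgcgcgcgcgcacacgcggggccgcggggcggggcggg

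The cytosolic chaperonin CCT (TRiC), which folds actin and tubulin in a ring of different subunits, was mostly within the limit between the groups. None of its 9 listed genes was past the limit in TTP or TTP-AA against GFP, and 1 was in TTP-AA against TTP. That gene, Cct7, had levels of 20634, 22498 and 25144 in GFP, of 21791, 23581 and 26594 in TTP and of 17227, 18704 and 20983 in TTP-AA. TTP-AA was 1.26-fold below TTP without overlap, and differed from GFP by -0.26 on the log2 scale with overlap. The medians over the 9 genes were 0.08 for TTP against GFP, -0.03 for TTP-AA against GFP and -0.13 for TTP-AA against TTP.

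Within CCT the order of the groups differed between subunits. Cct4 had group levels of 19127, 22404 and 19322 in GFP, TTP and TTP-AA, with TTP apart from both other groups. Tcp1 (subunit alpha) showed the same order at 28212, 30965 and 28277, with log2 differences of 0.13 and -0.13 from either side and a replicate-number range of 0.07. Cct5 was at 36311, 40887 and 35258 and Cct6a at 22762, 25668 and 22097, both higher in TTP by 0.17 and with overlapping libraries. In Cct2 (24917, 22739 and 24458) TTP was instead the lowest group, Cct3 varied little (22588, 22290 and 21444), and in Cct8 (18189, 19120 and 20783) TTP-AA was the highest. The testis form Cct6b was at 8.61 to 9.95, with an authors' mean of 9.24 near the lowest of the listed genes (8.98). Per kilobase of transcript Cct5 was the highest of the 75 members with a length, at 20229, followed by Hspa8 at 17578, Hspe1 at 15399 and Hsp90ab1 at 14420.

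In the HSP110 family, which acts as nucleotide exchange factor for HSP70, Hsph1 (HSP105) was 1.30-fold lower in TTP-AA than in TTP. Its levels were 4279, 2542 and 5027 in GFP, 5078, 2994 and 5973 in TTP and 3893, 2303 and 4571 in TTP-AA. Replicate number 2 was low in every group, so that the range between replicate numbers was 0.99, wider than any group difference, and the groups overlapped. Hspa4 (APG-2) was at 19575, 22444 and 18548, with TTP apart from both other groups, and Hspa4l was at 1974, 1706 and 1707.

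The 37 J-domain genes were spread around 0, and those furthest out were of low to middle abundance. Dnajc22 (ENSMUSG00000038009, chr15:99093170-99104737, plus strand) was the lowest of all members in both comparisons of TTP-AA. Its levels were 292, 380 and 341 in GFP, 266, 344 and 311 in TTP and 131, 170 and 153 in TTP-AA. All TTP-AA libraries lay below all others, at 2.23-fold below GFP (-1.16) and 2.02-fold below TTP (-1.02), and TTP differed from GFP by -0.14. Dnajb9 (ERdj4, a BiP partner that is induced by the unfolded protein response; ENSMUSG00000014905, chr12:44205559-44210326, minus strand) had levels of 261, 275 and 231 in GFP, of 247, 258 and 218 in TTP and of 328, 345 and 290 in TTP-AA. TTP-AA was above both other groups without overlap, by 0.33 over GFP and 0.41 over TTP. Most members of the ER went the other way: in TTP-AA against TTP, 3 of 10 were above 0 and 7 below. Those below include Hspa5 (-0.50), Hsp90b1 (-0.34) and Dnajc3 (-0.34). Listed genes on chromosome 12 had a median of 0.15 for TTP-AA against GFP, and after centring by chromosome Dnajb9 was within the limit in both comparisons, at 0.17 against GFP and 0.32 against TTP. With total scaling its difference from GFP was also within it (0.32).

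Dnajb14, an ER membrane protein, had its highest level in GFP and its lowest in TTP-AA. Its levels were 2823, 2682 and 2324 in GFP, 2203, 2077 and 1816 in TTP and 1713, 1621 and 1410 in TTP-AA. No pair of groups overlapped, with log2 differences of -0.36, -0.72 and -0.36. Dnajb14 lies on chromosome 3, where the 657 listed genes had a median of -0.19 in TTP against GFP, and all 5 members there were below 0 (median -0.21). After centring on that chromosome Dnajb14 was at -0.17 in TTP against GFP, within the limit. It stayed past the limit in TTP-AA against GFP (-0.62) and against TTP (-0.46). Dnajb4, also on chromosome 3, was at 2039, 1647 and 1602, and its call in TTP-AA against GFP (-0.35) was within the limit after centring (-0.25). The part of these chromosome medians in the differences of single members was not tested.

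Of the other J-domain genes, Dnajc14 was the furthest down in TTP against GFP. It had levels of 3404, 3479 and 3520 in GFP, of 2471, 2506 and 2559 in TTP and of 2836, 2886 and 2931 in TTP-AA, so that no pair of groups overlapped and TTP was 1.38-fold below GFP (-0.47). It lies on chromosome 10, whose listed genes had a median of -0.13, and after centring it was at -0.33. In Dnajc14, 19.2% of stretches also occur in other genes, and its exons overlap those of Sarnp, Ormdl2 and Tmem198b, so its level is uncertain. Dnajc21, a ribosome maturation factor, was at 2250, 2499 and 1668, with TTP-AA below TTP (-0.58). Its replicate-number range was 0.73 and its libraries overlapped. Dnajc2, which acts at the ribosome, was at 7243, 8939 and 7482, and TTP was 0.30 above GFP without overlap. Dnaja1, a main cytosolic partner of HSC70, was at 3209, 3435 and 2599, with TTP-AA 1.32-fold below TTP (-0.40) and below every library of the other groups. It shares 20.6% of its stretches with other genes, and its exons overlap those of Smu1. Dnajc3 (p58IPK), an ER co-chaperone that restrains the kinase PERK, was at 5731, 5532 and 4377, with TTP-AA lower than both (-0.39 and -0.34), of which the second was within the limit under upper-quartile scaling (-0.31) and after centring (-0.32). Dnajc28 was high in TTP-AA (68.0, 75.9 and 107) with a replicate-number range of 0.98 and overlap in all pairs.

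The remaining named members were of several families. Dnajb5 was at 208, 193 and 250, with TTP-AA 0.37 above TTP without overlap, and Dnajb12 was at 1265, 1046 and 1241, with a difference of -0.28 between TTP and GFP. Dnajc30, which acts at the mitochondrial ATP synthase, was at 279, 333 and 310. Bag4, which silences death receptors, was at 1246, 1498 and 1073, and TTP-AA was 1.40-fold below TTP (-0.48) without overlap. Hspbp1, a nucleotide exchange factor of HSP70, was at 1672, 1592 and 2023, with TTP-AA 0.27 above GFP and 0.35 above TTP, both without overlap. Hspb11, named as a small heat shock protein but an intraflagellar transport subunit, was at 331, 296 and 250, with a log2 difference of -0.40 between TTP-AA and GFP, without overlap. The only small heat shock protein listed was Hspb6, at 14.8 to 19.5. Whether the authors' model shrank its group terms was not stated. The levels here are fitted means of that model, so any shrinkage could also make the group differences given here smaller. It would bear most on such low levels.

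The abundant members were mostly lower in TTP-AA than in TTP. Of the 18 members with an authors' mean of at least 10000, 15 were below 0 and the median was -0.21, where the 614 listed genes of that abundance had 324 below 0 and a median of -0.02. None of the 18 was higher and 6 were lower past the limit (Hspd1, Hsp90ab1, Hspa5, Hspa9, Hsp90b1 and Cct7), beside 66 higher and 58 lower of the 614. Under upper-quartile scaling Hsp90b1 (-0.32) and Cct7 (-0.31) were within the limit. In TTP against GFP, 16 of the 18 were above 0, with a median of 0.15, beside 0.02 for listed genes of that abundance. The 58 members of lower abundance had medians of -0.01 and 0.02 in these comparisons, and held all 8 members past the limit upwards in TTP-AA against TTP. The comparisons share the TTP libraries, and the limit of 10000 was set after the levels were seen, so this is a description of the set.

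**Figure D3:**
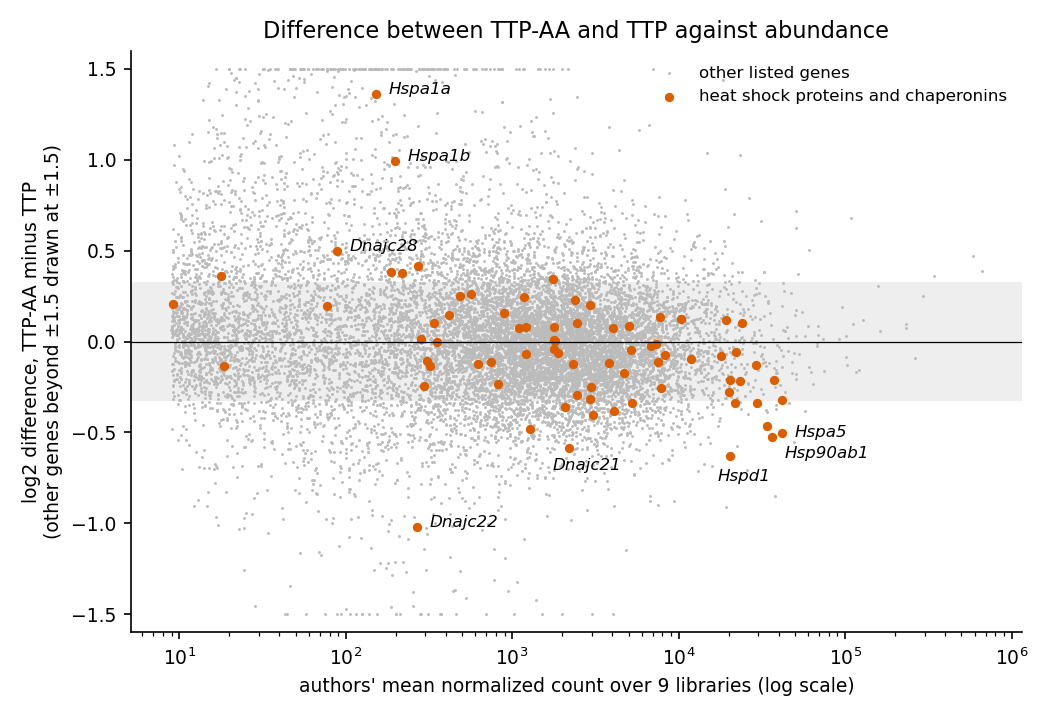
Log2 difference between TTP-AA and TTP (vertical axis) against the authors' mean normalized count (horizontal log axis), with members in orange and other listed genes in grey. The grey band is the range within 0.32 of 0; above a mean of 10000, 15 of 18 members lie below 0, and the highest members, Hspa1a and Hspa1b, are of low abundance.

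Chaperone genes outside the naming rule were also mostly lower in TTP-AA than in TTP. Of a list of 42 co-chaperones, ER and mitochondrial chaperones and prefoldin subunits, 41 were listed, with medians of 0.11 in TTP against GFP, -0.09 in TTP-AA against GFP and -0.20 in TTP-AA against TTP. In TTP-AA against TTP none was higher and 16 were lower past the limit (12.1% of all listed genes were), and 33 of 41 were below 0. All 7 mitochondrial chaperones and proteases were below 0 there, 4 of them past the limit, such as Clpb (2147, 2483 and 1770 in GFP, TTP and TTP-AA), Lonp1 (5626, 6518 and 4921) and Trap1, the mitochondrial HSP90 (5457, 5872 and 4681). The 8 mitochondrial genes among the members were less uniform, with 5 below 0, 3 above 0 and a median of -0.07. Of 11 ER chaperones 4 were lower past the limit, namely Pdia4 (7012, 7908 and 5695), Creld2 (4894, 5178 and 3936), Hyou1 (7296, 8072 and 6198) and Canx, calnexin (45334, 51742 and 40916), while Calr, calreticulin, was at 29151, 29382 and 29237. Among 15 co-chaperones of HSP90 and HSP70, Stip1 (HOP), which joins both machines, was higher in TTP against GFP (0.39) and lower in TTP-AA against TTP (-0.39), and Fkbp4 behaved alike (0.33 and -0.41). In prefoldin, which delivers actin and tubulin to CCT, Pfdn2 and Pfdn4 were lower in TTP-AA than in TTP (-0.58 and -0.42).

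**Figure D4:**
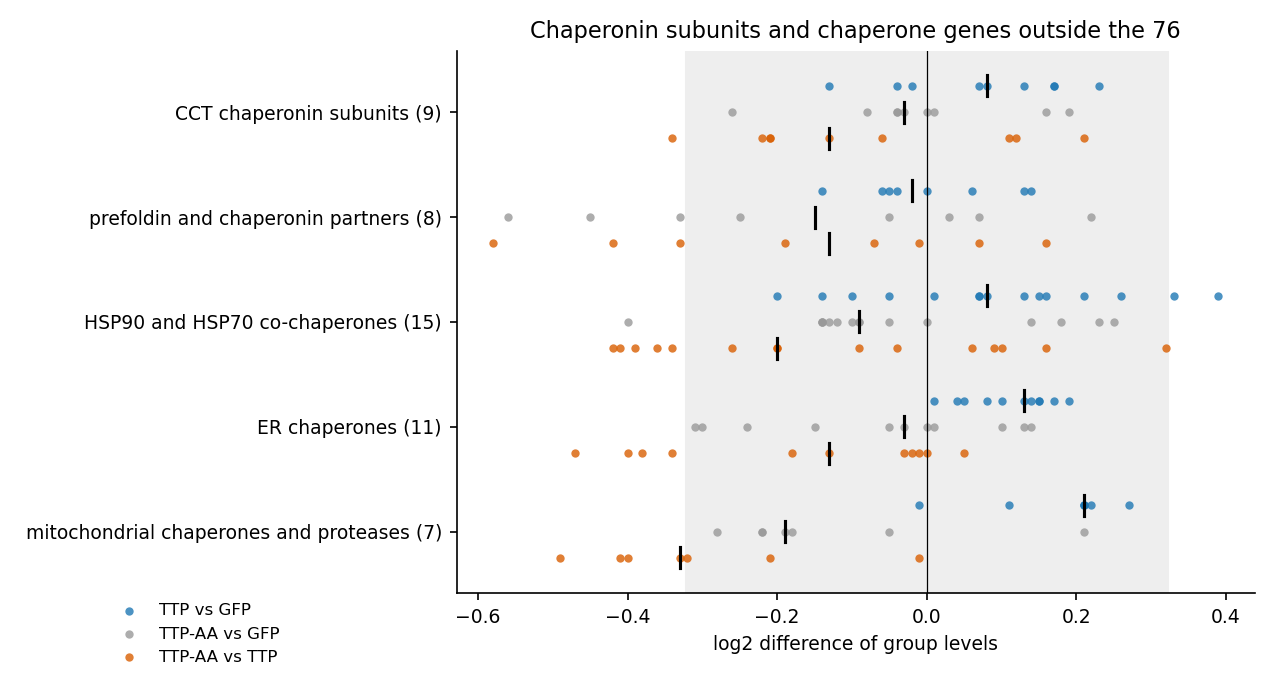
Log2 difference of group levels (horizontal axis) for the 9 CCT subunits and for 4 lists of chaperone genes outside the 76 members, 1 point per gene, coloured by comparison, with black lines at the medians and the range within 0.32 of 0 in grey. All 7 mitochondrial genes and 10 of 11 ER chaperones lie below 0 in TTP-AA against TTP.

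The promoters and 3′UTRs of the members were searched for short motifs on both strands and on the transcribed strand, respectively. A 2-unit heat shock element was present in the promoter windows of 15 of the 61 members with a RefSeq window (24.6%), beside 14.0% of 9310 listed genes. A 3-unit element, a search added after the data were seen, was present in 4 (Dnajb6, Hspd1, Hspe1 and Hsph1; 6.56%), beside 0.559% of listed genes. These 4 were between 0.01 and 0.36 above GFP in TTP and differed by -0.63 to -0.10 between TTP-AA and TTP on the log2 scale. Hspd1 and Hspe1 hold the same stretch, since their windows share 285 bases, and it counts for both genes in the 2-unit and 3-unit shares. The Hspa1a and Hspa1b windows, which are nearly identical, also count as 2 genes in the 2-unit share. For the AU-rich core TATTTAT in 3′UTRs, 18 of the 68 members whose 3′UTR was 100 bases or longer had it (26.5%), beside 28.8% of 10830 listed genes, with median 3′UTR lengths of 1033 and 1037.5 bases. Neither Hspa1a nor Hspa1b has it. Of the 18 members with the core, 11 were below 0 and 7 above 0 in TTP-AA against TTP, with a median of -0.10. Past the limit, 5 were lower and 0 higher, where 12.1% of all listed genes were lower and 16.1% higher. The libraries overlapped for Hsph1, which is among the 5. These shares were not taken for listed genes with the core, and a link between the core and the differences was not tested. Sites with the core in capitals (GENCODE M21, GRCm38, transcribed strand 5′ to 3′) are shown for 3 members that were lower in TTP-AA than in TTP and for Dnajb12 and Dnajc15, which lay above TTP without overlap but within the limit (0.25 and 0.23), as did Dnajc27 with 4 sites (0.16). They are, in the order shown, at chr15:99104619-99104647 (plus strand), chr5:149617413-149617441 (minus strand), chr3:137911677-137911705 (plus strand, the first of 3 in this gene), chr10:59897944-59897972 (plus strand) and chr14:77825698-77825726 (minus strand, the first of 3).
Dnajc22 site: ggtagagaataTATTTATgtgttgaattc
Hsph1 site: cagactgagtcTATTTATattttcttttt
Dnajb14 site: tggttttatttTATTTATtcttatgtttg
Dnajb12 site: atatatatatcTATTTATatgtaaataga
Dnajc15 site: cattctatgaaTATTTATtgacccagcta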

How the data were processed

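RNA of 9 libraries was rRNA-depleted and read as 50-base single ends. Per the submitters' processing notes and the study's methods, reads were trimmed with Trim Galore, aligned with TopHat to GRCm38 with up to 2 placements per read, counted per Ensembl gene with HTSeq and modelled with DESeq2 1.6.3, with library date and condition as terms; use of strand was not given in the sources used here. The deposited level table, named as normalized counts by the authors, holds a signal: its 25494 genes had no value of 0, and log2 values equalled a library, a replicate-number and a group term with a largest residual of 9.5e-15. The values are thus fitted means, and the limma fit foreseen for measured values was not run. The deposited comparison tables also hold the authors' log2 fold changes, standard errors, statistics and p-values, none of which were used; their mean signal (normalized counts over 9 libraries), gene lists, symbols and chromosomes were.

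The titles of the samples gave each library's group and replicate number. Libraries were scaled by the median ratio over the 13205 listed genes (factors 0.612 to 2.83; 3 repeated rows dropped), and a group level is the geometric mean of 3 libraries. The scaled mean was within 0.05 of the authors' mean, as a ratio, for 94.7% of genes. Levels per kilobase used the transcript with the longest coding sequence in GENCODE M21, a later annotation of the same assembly. Promoters were from RefSeq (GRCm38.p6). Adgre1 was matched by its gene identifier, since the files carry an older symbol. Shared stretches are 50-base runs that also occur in transcripts of another gene. The steps were tested on simulated data and run in Python 3.11.15 with numpy 2.4.6 and pandas 2.3.3. The members and lists were chosen with earlier results of these data known. Genes named were the main HSP70, HSP90, HSP110, chaperonin, HSF and co-chaperone genes and, per comparison, the 6 highest and 6 lowest members with a mean of at least 50; Dnajc3 and other members past the limit of 0.32, members given to complete a family (Hspa14, Hspa4l, Hspa12b and Cct6b), Hspb6 and genes of the pathway list were named after their values were seen.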

Additional observations from a re-analysis of the deposited data

How the results depend on the processing

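The medians over the members stayed small under total and upper-quartile scaling, centring by chromosome, a lowest mean of 100 and leaving out the 31 members with overlapping exons or at least 10% of stretches shared with other genes. They ran from 0.02 to 0.07 in TTP against GFP, from -0.02 to 0.01 in TTP-AA against GFP, where the sign was not kept, and from -0.08 to -0.04 in TTP-AA against TTP. The counts past the limit of 0.32 were 4, 12 and 21 of 76 in TTP against GFP, TTP-AA against GFP and TTP-AA against TTP. Among the 45 members left after leaving out those 31, no member was past the limit in TTP against GFP (0) and 11 were in TTP-AA against TTP. At a limit of 1.5-fold the counts were 0, 5 and 4. Of 387 values of 43 named members under other scalings or centring, 362 moved by less than the SD of the gene's 3 replicate-number terms and 25 by more, and 0 of those past the limit changed sign. Members that came within the limit by scaling or centring are given beside their values, apart from Hspa2, whose difference between TTP-AA and TTP was 0.28 after centring, and Hspa8, Bag2, Dnaja1, Hspa2 and Cct6b went past it in a comparison under at least 1 of these settings. No paired analysis was possible because levels were deposited as fitted means, which already contain the replicate-number term and leave no residual; fits with a replicate block and fits without each replicate were not run for the same reason. Depth limits cannot be given, since the deposited values are not read counts.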
